A study of Mus musculus with 20 samples.

Results

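Cell cycle and DNA replication genes were followed through mouse intestinal crypt cells and organoids that had lost, or were labelled as having lost, *Mettl3*, the enzyme that places m6A on RNA. The members are 47 genes of a list, taken by symbol out of 54838 gene rows: 26 of DNA replication (*Mcm2* to *E2f1*) and 21 of mitosis (*Ccna2* to *Nusap1*), which are described separately. All 47 were at or above 1 FPKM (fragments scaled by transcript length and library size) in every one of the 20 libraries, the lowest value being 1.27 for *Pola1*, so all 47 were tested and none was lost to the filter on low values.

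The tissue libraries came from C57BL/6 crypts digested to cells and sorted into gates by the brightness of Lgr5-EGFP, a reporter of the stem cells at the crypt base. There were 2 libraries each of WT Lgr5-high, WT Lgr5-low, *Mettl3*-/- Lgr5-high at day 4, *Mettl3*-/- Lgr5-low at day 4 and *Mettl3*-/- at day 6, and 1 library of each gate at day 3. The labels of the day 6 libraries name no gate, although the column header of the first names a low gate. Knockout mice were Mettl3fl/fl with Lgr5-EGFP-IRES-CreERT2 and Villin-CreERT2, which together place a tamoxifen-activated Cre in stem cells and throughout the intestinal epithelium. These mice were given tamoxifen at 20 mg/ml for 4 days. This length is given for the day 3, day 4 and day 6 libraries alike, and their titles do not say from which dose the days count. WT tissue is labelled untreated, while the protocol text gives tamoxifen to Mettl3fl/fl mice too and names no Cre or reporter allele for them, so an effect of tamoxifen and one of the deletion cannot be told apart. Organoids were grown from mice with the same 3 alleles: WT received ethanol and *Mettl3*-/- 4-OHT, for 2 days each, and further knockout organoids carried retroviral AKF (*Ascl2*, *Klf9*, *Fosb*) or AKFP (the same with *Purb*), selected with puromycin and switched on by the same 4-OHT. Each of these 4 groups had 2 libraries. In organoids an effect of 4-OHT itself and one of the deletion cannot be told apart. Retrovirus and puromycin, named above for AKF and AKFP alone, cannot be told apart from the factors in comparisons with the other organoids. Only the titles of the WT and plain knockout organoids hold "m3-flag", which is not explained, so a difference of AKF or AKFP from either cannot be told apart from one of that mark. No age is given. The labels do not tie the libraries of a group to different mice or cultures, so p-values measure the spread between these libraries, which may be technical.

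A cell that is to divide first loads the MCM helicase at replication origins with the help of *Cdc6* and *Cdt1*, fires them with *Cdc45* and the GINS complex, and copies its DNA with polymerases held on by the *Pcna* clamp. Its nucleotides come from ribonucleotide reductase (*Rrm1*, *Rrm2*) and thymidylate synthase (*Tyms*). Later, cyclins A and B with *Cdk1* drive mitosis, in which the spindle, the kinetochores and the checkpoint kinases separate the chromosomes, and *Cdc20* with *Ube2c* has the cyclins destroyed. Transcription of the first group is known to be under E2F factors, which cyclin E with *Cdk2* releases from Rb. That of the second is under the MuvB complexes with B-Myb or FoxM1, which bind CHR elements, together with NF-Y at CCAAT boxes. In the crypt, stem cells at the base and the transit-amplifying cells above them divide, and enterocytes and most secretory cells do not.

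Motif letters in the promoters were compared between the sets, from 250 bases before to 50 after the start site (RefSeq sequences, build GRCm38.p6). Of the 47 members 38 had an entry, with 43 promoters in all. These were 26 promoters of 21 replication members and 17 promoters of 17 mitotic members. An E2F letter match (TTTGGCGC, TTTCCCGC, TTTGGCGG, TTTCCCGG, TTTGCCGC or TTTCGCGC, on either strand) was held by 10 of 26 replication promoters and 2 of 17 mitotic ones, against 3.98% of all 32851 promoters in the table. A CHR match (TTTGAA or TTTAAA) was held by 7 of 26 and 15 of 17, against 27.6% of all, and a CCAAT match by 15 of 26 and 15 of 17, against 37.4%. CHR and CCAAT stood together in 14 of 17 mitotic promoters, 5 of 26 replication promoters and 10.7% of all. A match is a description of the letters and no evidence of binding. A pair of members of each set that the results below turn on are shown 5′ to 3′ on the gene's strand. Every E2F, CHR and CCAAT match is in capitals. Of the replication set these are *Mcm6* (chr1:128359656-128359955, minus strand) and *Rrm2* (chr12:24708004-24708303, plus strand). They moved in opposite directions at day 6 against WT Lgr5-high, and both rose in AKFP against plain knockout organoids. Of the mitotic set they are *Ccnb2* (chr9:70421505-70421804, minus strand) and *Top2a* (chr11:99024140-99024439, minus strand).
Mcm6: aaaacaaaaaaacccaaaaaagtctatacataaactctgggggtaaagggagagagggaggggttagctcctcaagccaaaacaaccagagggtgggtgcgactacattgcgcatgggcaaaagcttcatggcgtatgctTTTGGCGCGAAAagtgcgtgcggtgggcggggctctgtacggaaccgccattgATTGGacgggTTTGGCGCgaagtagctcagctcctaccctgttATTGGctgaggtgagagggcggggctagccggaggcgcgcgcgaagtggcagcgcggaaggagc
Rrm2: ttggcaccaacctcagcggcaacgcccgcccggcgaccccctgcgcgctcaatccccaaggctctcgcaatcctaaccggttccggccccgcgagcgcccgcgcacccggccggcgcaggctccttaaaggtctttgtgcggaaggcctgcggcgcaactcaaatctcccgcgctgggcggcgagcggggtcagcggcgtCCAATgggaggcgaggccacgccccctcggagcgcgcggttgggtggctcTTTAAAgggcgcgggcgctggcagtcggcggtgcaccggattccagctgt
Ccnb2: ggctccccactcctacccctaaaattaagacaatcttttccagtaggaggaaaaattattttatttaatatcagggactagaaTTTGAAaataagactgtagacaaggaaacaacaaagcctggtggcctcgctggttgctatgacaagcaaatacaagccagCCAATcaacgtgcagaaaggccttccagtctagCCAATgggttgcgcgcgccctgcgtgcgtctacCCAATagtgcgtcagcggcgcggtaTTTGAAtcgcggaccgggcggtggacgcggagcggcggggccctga
Top2a: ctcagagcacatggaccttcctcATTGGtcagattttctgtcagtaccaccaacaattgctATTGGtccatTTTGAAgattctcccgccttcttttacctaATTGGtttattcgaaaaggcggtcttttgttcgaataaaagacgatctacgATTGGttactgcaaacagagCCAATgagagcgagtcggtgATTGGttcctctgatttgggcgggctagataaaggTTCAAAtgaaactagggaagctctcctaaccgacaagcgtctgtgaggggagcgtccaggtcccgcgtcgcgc
The *Mcm6* promoter held 3 E2F matches, of which the pair beginning at -110 and -106 from the start site overlap, and 2 CCAAT matches. The *Rrm2* promoter held no E2F match, 1 CCAAT match at -50 and 1 CHR match at the start site. *Ccnb2* had CCAAT matches at -87, -54 and -21 and CHR matches at -167 and just after the start site, and *Top2a* had 6 CCAAT matches and CHR matches at -179 and -23.

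Libraries differed in ways their groups do not name. The first day 4 Lgr5-high and the first day 6 library had the largest FPKM sums of the 12 tissue libraries (607817 and 763177, against 456654 to 534593 in the others), and in both the long transcripts were low relative to the short ones. *Mettl3* FPKM ran from 3.42 to 4.86 in WT and from 2.75 to 4.99 in knockout tissue, and from 3.23 to 3.56 in WT and from 3.33 to 4.22 in knockout organoids, so the level of its transcript did not tell the genotypes apart. Summed FPKM of 7 stem cell markers was 3290.1 and 3543 in WT Lgr5-high and 667 and 609.9 in WT Lgr5-low libraries. Paneth cell markers were high in every tissue library and the defensin *Defa24* was the highest gene of all 12, while 7 of 8 stromal and endothelial markers and 5 of 8 immune markers, among them *Ptprc*, stayed under 1 FPKM in all of them. The depth of the libraries could not be recovered from the FPKM values and is unknown. Since no source says that strand was kept, values of the 14 members with an antisense exon overlap are uncertain, among them *Nusap1* (with *Oip5*), *Fen1* (with *Tmem258*), *Mcm7* (with *Ap4m1* and *Cops6*), *Cdc45*, *Lig1*, *Rfc4*, *Ccna2*, *Cdc20* and *Ube2c*, as are those of 4 with a named pseudogene (*Pcna*, *Tyms*, *Ccnb1*, *Ccnb2*).

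Both sets were well expressed in every sample. Over the 12 tissue libraries the highest mean FPKM belonged to *Pcna*, the replication clamp (72.5), *Cdc20*, the activator of the anaphase-promoting complex (53.1), and *Ccnb2*, a mitotic cyclin (45.1), and the lowest to the kinetochore protein *Cenpf* (3.08), the polymerase subunit *Pole* (3.82) and cyclin E2, *Ccne2* (4.37). The mean of log2(FPKM + 1) over a set, used here as its level, was highest in the day 3 Lgr5-high library (4.54 for replication, 4.60 for mitosis) and lowest of the tissue libraries in the second day 4 Lgr5-low library (3.14 and 3.58). The level of the mitotic set lay above that of the replication set by 0.19 and 0.16 in the WT Lgr5-high libraries and by 0.49 and 0.41 in WT Lgr5-low, and by 0.54 to 0.65 in all 8 organoid libraries. Within WT tissue the gap was thus smaller in Lgr5-high than in Lgr5-low cells, and in the day 6 libraries it was 0.19 and 0.31. The tissue and organoid tables were normalized separately, so levels are compared only within each.

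**Figure D1:**
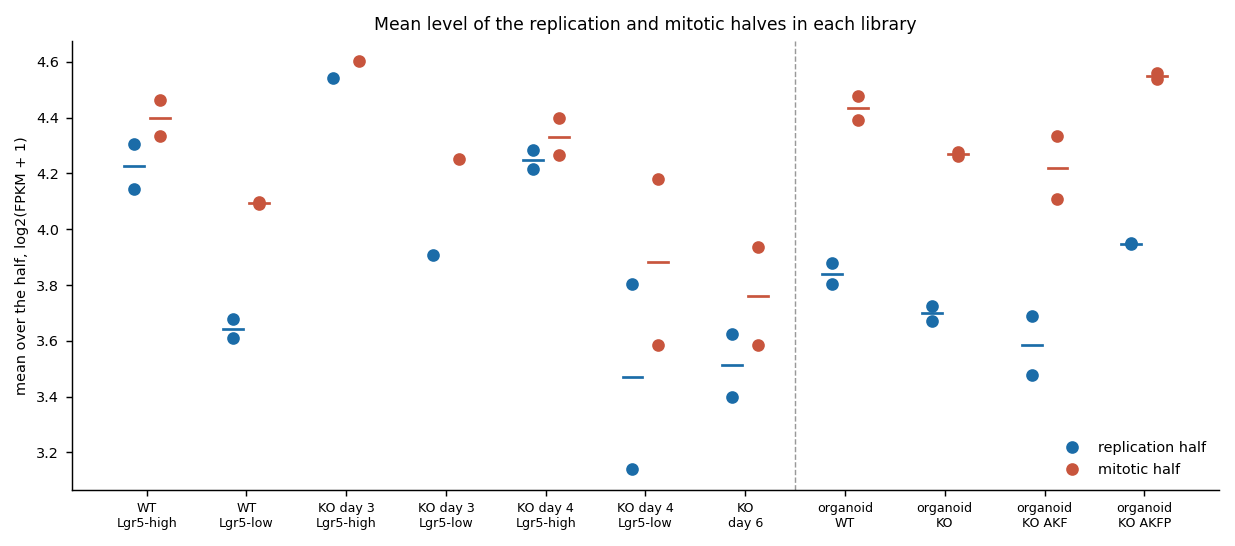
Level of each set (mean of log2(FPKM + 1) over 26 replication and 21 mitotic genes, vertical axis) in each of the 20 libraries by group, with a dot per library and a bar for the mean of 2. The day 3 Lgr5-high library is the highest and the day 6 libraries lie below all Lgr5-high libraries, while AKFP libraries are the highest of the organoids.

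**Figure D2:**
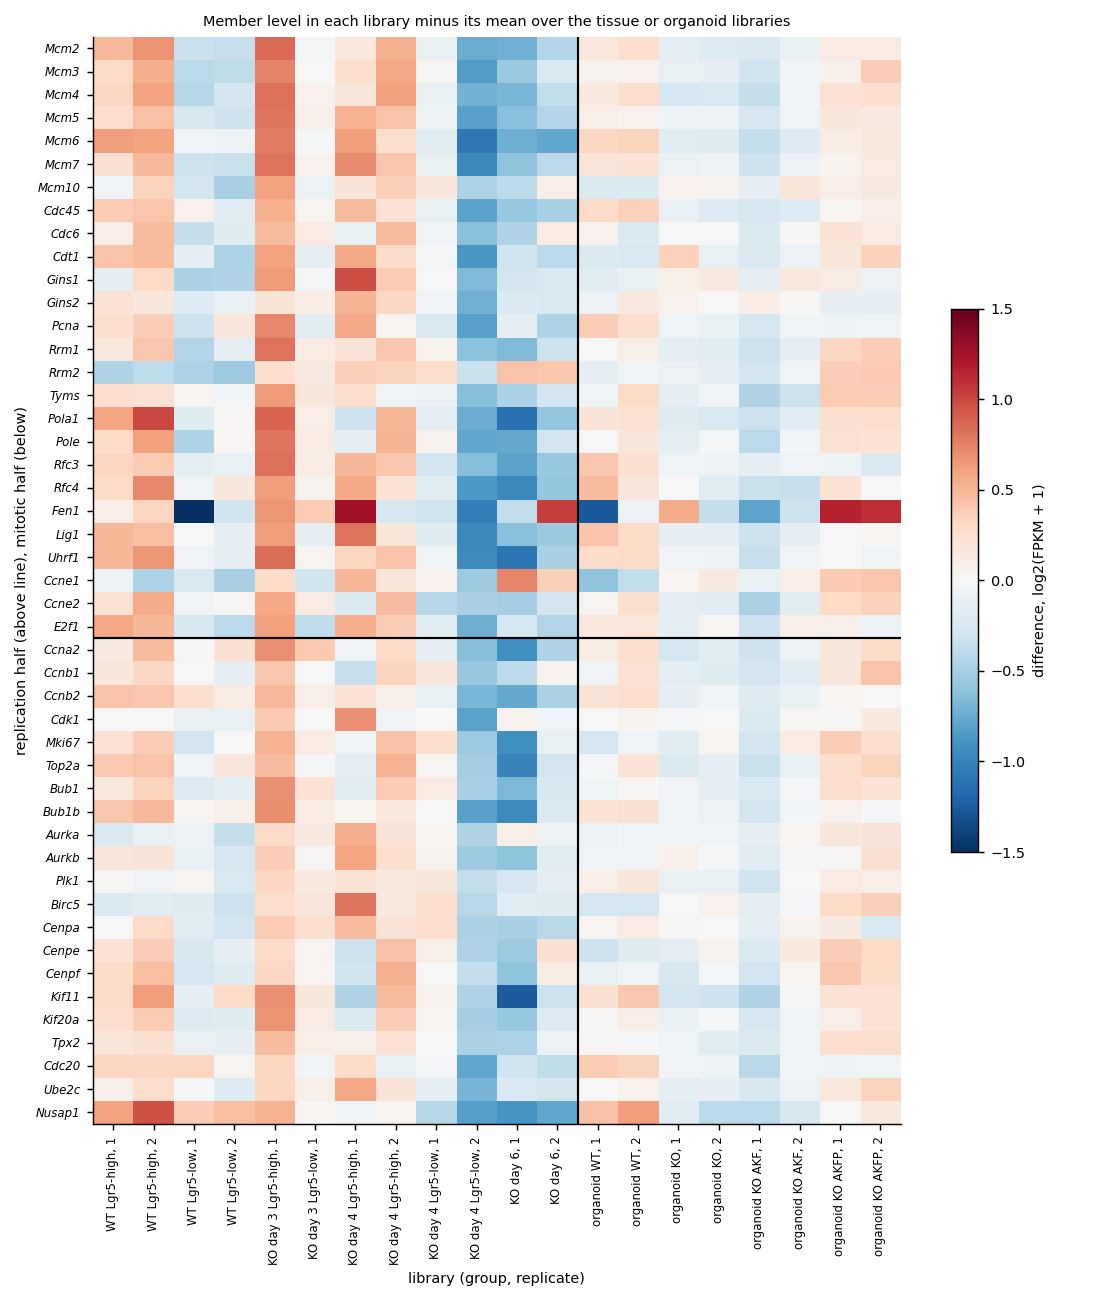
Each of the 47 members (rows) in each library (columns), as log2(FPKM + 1) minus the gene's mean over the 12 tissue or the 8 organoid libraries, with colours held at 1.5 either way. Most rows are red in Lgr5-high columns and blue in the second day 4 Lgr5-low and the day 6 columns, and Rrm2, Ccne1 and Fen1 go their own way.

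In WT crypts, all 26 replication members and all 21 mitotic members stood higher in Lgr5-high than in Lgr5-low cells, by a median of 0.56 and 0.34 on the log2(FPKM + 1) scale. Of all genes tested 60.5% did so, with a median of 0.10. All differences are given on this scale with their standard error (SE) after the ± sign. An adjusted p is printed where it was under 0.05, except for some genes said to have risen or fallen, for which it was under 0.05 too. No member passed limma's test at an adjusted p under 0.05 (Benjamini-Hochberg over all genes), a rule by which 1.2% of the 12899 genes tested were called. At an unadjusted p under 0.05 the count was 10 of 26 and 0 of 21, against 13.6% of all genes. *Mcm2*, a subunit of the helicase, was at 25.9 and 29.7 FPKM in Lgr5-high and 14.3 and 14.1 in Lgr5-low libraries (0.92 ± 0.25). Its groups did not overlap. The same held for *E2f1*, the factor that switches on many replication genes, at 10.3 and 9.70 against 5.40 and 4.77 (0.86 ± 0.22). *Mcm4*, another helicase subunit, differed by 0.82 ± 0.26. Of the mitotic members, *Kif20a* (0.50 ± 0.26), *Cenpf* (0.58 ± 0.33) and *Nusap1* (0.37 ± 0.21) had the smallest p. *Mki67*, the marker of cycling cells, was at 38.8 and 43.2 in Lgr5-high and 27.0 and 33.2 in Lgr5-low (0.44 ± 0.34). *Mcm6* differed by 0.68 ± 0.29, *Pcna* by 0.38 ± 0.29, and *Ccnb1* by 0.30 ± 0.31. With only these 4 libraries in the fit, 11 replication members and 1 mitotic member were called, all higher in Lgr5-high, where 1432 of 11977 genes were called.

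The other pathway lists lay in the same direction. All 57 further replication genes and 69 of 70 further mitosis genes stood higher in Lgr5-high WT cells, with medians of 0.46 and 0.35 and none called. Of the inhibitors of the cycle 1 of 14 was called: *Cdkn2b*, which encodes the Cdk inhibitor p15, was at 6.96 and 4.80 FPKM in Lgr5-high and 34.3 and 36.0 in Lgr5-low libraries (-2.41 ± 0.26, adjusted p = 0.0133), a call lost without any one of these 4 libraries. *Cdkn1a*, which encodes the Cdk inhibitor p21, was at 10.1 and 10.7 against 25.9 and 28.3 (-1.30 ± 0.28). Among regulators of cycle entry, *Myc* was at 1.10 ± 0.32 and *Ccnd1* at 0.44 ± 0.25. Markers of absorptive cells moved the other way: 5 of 8 enterocyte markers were called lower in Lgr5-high, and their sum was 294 and 343 against 1794 and 3441 FPKM. In bulk samples fewer dividing cells and less of these transcripts per cell cannot be told apart, here and below. The part that a change of cell types has in any difference was not tested.

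At day 3, with 1 library in each gate and so no test, most members stood above WT cells of their gate. In Lgr5-high 22 of 26 replication and 17 of 21 mitotic members were above both WT libraries, and in Lgr5-low 19 of 26 and 16 of 21. The share of all genes above both WT libraries is not given, so these counts have no background to be read against. The median differences from the WT mean were 0.34 and 0.22 in Lgr5-high and 0.25 and 0.22 in Lgr5-low. The median over all genes tested was 0.05 and 0.04. Above the WT mean stood 26 of 26 and 18 of 21 members in Lgr5-high and 23 of 26 and 17 of 21 in Lgr5-low, against 57.9% and 56.8% of all genes. All 7 goblet and all 7 enteroendocrine markers were above the WT mean in both gates. Of stem cell and Paneth markers 0 of 7 each were above it in Lgr5-high, and 6 of 7 and 7 of 7 in Lgr5-low, where 0 of 8 enterocyte markers were. Their part was not tested. *Rrm2*, a subunit of ribonucleotide reductase, was at 32.4 FPKM at day 3 against 19.5 and 20.6 in WT Lgr5-high, and at 29.7 against 19.4 and 18.3 in Lgr5-low. *Rrm2* was thus above both WT libraries in each gate. *Nusap1*, which binds and bundles spindle microtubules, was the only member below both WT libraries in the Lgr5-high gate, at 12.6 against 13.3 and 17.3. It was also below both in the low gate, at 8.68 against 11.2 and 11.9. In the low gate *Lig1*, *Cdc20* and *Ccnb2* were below both WT libraries too.

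At day 4 no member of either set passed the test against WT of its gate. In Lgr5-high cells no member was called, 1.05% of all genes being called, and 1 of 26 replication and 3 of 21 mitotic members had an unadjusted p under 0.05, against 16.9% of all genes. The medians were -0.02 and -0.19. Beneath these medians members stood on both sides of WT, none past the threshold. *Rrm2* was at 34.9 and 34.2 FPKM in the knockout libraries, above both WT libraries (0.76 ± 0.21). So were *Ccne1* (0.60 ± 0.27), *Gins1* (0.60 ± 0.29), the survivin gene *Birc5* (0.66 ± 0.27) and the mitotic kinase *Aurka* (0.53 ± 0.23). *Nusap1* was at 8.16 and 8.72, below both WT libraries (-0.78 ± 0.21). *Mki67* (-0.11 ± 0.34), *Mcm6* (-0.18 ± 0.29), *Pcna* (0.00 ± 0.29) and *Ccnb1* (-0.24 ± 0.31) did not pass. The inhibitor *Cdkn1a* rose, from 10.1 and 10.7 to 23.6 and 40.1 FPKM (1.48 ± 0.28, adjusted p = 0.0497), a call lost without either WT library of either gate, either day 4 Lgr5-low or either day 6 library, with adjusted p from 0.0582 to 0.345, while *Ccnd1* (0.31 ± 0.25) and *Myc* (0.17 ± 0.32) did not pass. Without the first day 4 Lgr5-high library the mitotic median was 0.05, and without the second -0.36. Alongside, 4 of 7 enteroendocrine markers and 1 of 7 goblet markers were called higher.

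In Lgr5-low cells at day 4 no member was called either, against 0.473% of all genes, and 0 of 26 and 2 of 21 had an unadjusted p under 0.05, against 13.7% of all genes. The medians, -0.16 and -0.13, rested on which library was used: without the second they were 0.20 and 0.22, and without the first -0.53 and -0.40. The libraries differed from each other in most members, *Mcm6* being at 35.0 and 18.0 FPKM and *Mki67* at 39.3 and 22.4. In the second, which has the lowest level of both sets, the enterocyte marker sum was 4771 FPKM, against 1760 in the first. *Nusap1* was below both WT libraries in both, at 6.02 and 4.32 (-1.04 ± 0.21). *Ccnb2* (-0.57 ± 0.22) and *Cdc20* (-0.58 ± 0.27) came next. In the replication set *Rrm2* (0.46 ± 0.21), *Rfc4* (-0.57 ± 0.29) and *Mcm6* (-0.55 ± 0.29) had the smallest p. None of these passed. *Mki67* (-0.01 ± 0.34), *Pcna* (-0.44 ± 0.29), *Ccnb1* (-0.13 ± 0.31), *Ccnd1* (0.54 ± 0.25), *Myc* (0.24 ± 0.32) and *Cdkn1a* (1.25 ± 0.28) did not pass.

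The gate difference was again in one direction within day 4 knockout cells: 26 of 26 and 21 of 21 members stood higher in Lgr5-high, with medians of 0.81 and 0.45, against a median of 0.04 over all genes. No gene of any kind was called in this comparison (0.0%), and 17 of 26 and 6 of 21 members had an unadjusted p under 0.05, against 18.7% of all genes. *Rfc3*, a subunit of the clamp loader, was at 11.4 and 10.5 FPKM in Lgr5-high and 6.23 and 4.60 in Lgr5-low libraries (0.91 ± 0.20), with no overlap. *Mcm7* (1.10 ± 0.28), *E2f1* (0.91 ± 0.22) and *Mcm6* (1.05 ± 0.29) were also higher without passing. Of the mitotic set *Ube2c* (0.81 ± 0.23), *Nusap1* (0.63 ± 0.21) and *Aurkb* (0.66 ± 0.25) had the smallest p. *Pcna* (0.82 ± 0.29), *Mki67* (0.34 ± 0.34), *Ccnb1* (0.19 ± 0.31), *Ccnd1* (0.21 ± 0.25), *Myc* (1.03 ± 0.32) and *Cdkn1a* (-1.08 ± 0.28) did not pass either. Leaving out the second day 4 Lgr5-low library brought the medians to 0.47 and 0.12, and leaving out the first to 1.13 and 0.75. Leaving out the second day 4 Lgr5-high library gave 6 replication calls and 1 mitotic call, where 1736 of 12780 genes were called. Whether the knockout acted differently in the gates was tested as an interaction: no member was called (0.0155% of all genes) and none had an unadjusted p under 0.05 (1.73% of all genes). The medians turned from 0.22 and 0.12 to -0.08 and -0.16 without the second day 4 Lgr5-low library. The smallest p belonged to *Ube2c* (0.54 ± 0.33), *Aurka* (0.51 ± 0.32) and *Cdk1* (0.60 ± 0.43). Of replication members it belonged to *Rfc3* (0.42 ± 0.28), *Gins2* (0.47 ± 0.33) and *Lig1* (0.54 ± 0.41). *Mki67* stood at -0.10 ± 0.48, *Mcm6* at 0.37 ± 0.40, *Pcna* at 0.44 ± 0.40 and *Ccnb1* at -0.11 ± 0.44. *Ccnd1* was at -0.23 ± 0.35, *Myc* at -0.07 ± 0.45 and *Cdkn1a* at 0.23 ± 0.39.

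In the day 6 libraries several replication genes were lower than in WT Lgr5-high cells. As the labels name no gate for day 6, gate cannot be told apart from knockout or time in any day 6 comparison. WT Lgr5-low cells already stood below WT Lgr5-high cells, by medians of 0.56 for replication and 0.34 for mitosis. Of 26 replication members, 11 fell and 1 rose at day 6, together 46.2% of the set, while 21.9% of all genes were called in either direction. The day 4 and day 6 comparisons share the WT libraries. The median was -0.83 against -0.16 over all genes. The helicase subunits *Mcm2*, *Mcm4*, *Mcm5* and *Mcm6* fell. *Mcm6* was at 23.2 and 22.3 FPKM at day 6 against 61.0 and 60.0 in WT Lgr5-high (-1.37 ± 0.29, adjusted p = 0.012). Its groups were far apart, as were those of *Mcm2*, at 10.7 and 13.2 against 25.9 and 29.7 (-1.16 ± 0.25, adjusted p = 0.0143). *Cdc45*, which activates the helicase, fell by a like amount (-0.93 ± 0.25, adjusted p = 0.0301).

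Of the polymerase, clamp loader and ligase genes, *Pola1*, *Rfc3*, *Rfc4* and *Lig1* fell, while *Pole* and *Fen1* were not called. *Pola1*, the catalytic subunit of the polymerase that starts new strands, was at 1.27 and 2.29 FPKM against 6.42 and 8.84 (-1.64 ± 0.34, adjusted p = 0.0116). The clamp loader subunits *Rfc3* (-1.04 ± 0.20, adjusted p = 0.00842) and *Rfc4* (-1.28 ± 0.29, adjusted p = 0.0162) and the ligase *Lig1* (-1.06 ± 0.29, adjusted p = 0.0313) were lower as well. *Uhrf1*, which carries DNA methylation to the new strand, was at 12.9 and 20.1 against 40.6 and 45.6 (-1.37 ± 0.31, adjusted p = 0.0161). *E2f1* itself fell (-0.90 ± 0.22, adjusted p = 0.0243). The clamp *Pcna*, at 62.7 and 50.3 against 82.2 and 90.2, did not pass (-0.61 ± 0.29). *Rrm2* rose, from 19.5 and 20.6 in WT to 36.8 and 36.1 at day 6 (0.83 ± 0.21, adjusted p = 0.0263). Its call was lost when any one WT or day 6 library was left out and when libraries were scaled to equal FPKM sums. Cyclin E1, *Ccne1*, at 13.6 and 10.2 against 7.33 and 5.35, lay on the same side without passing (0.81 ± 0.27).

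Of 21 mitotic members 5 fell and none rose, with a median of -0.61. The share called, 23.8%, was near the 21.9% of all genes called in either direction, where 1530 of 12899 genes fell. *Nusap1* had the largest fall, from 13.3 and 17.3 FPKM to 4.12 and 4.52 (-1.61 ± 0.21, adjusted p = 0.00225), and it was called with any single library left out. The cyclin *Ccnb2* fell from 58.7 and 57.9 to 25.1 and 31.0 (-1.04 ± 0.22, adjusted p = 0.0138). Cyclin A, *Ccna2*, fell from 28.7 and 36.7 to 13.3 and 18.7 (-0.99 ± 0.26, adjusted p = 0.0272). So did the topoisomerase *Top2a* (-1.05 ± 0.31, adjusted p = 0.0444) and the checkpoint kinase *Bub1b* (-1.03 ± 0.31, adjusted p = 0.0444). *Mki67* was at 17.1 and 30.5, against 38.8 and 43.2 in WT, without passing (-0.81 ± 0.34). *Ccnb1* did not pass (-0.41 ± 0.31). *Aurka* (0.17 ± 0.23), *Birc5* (0.01 ± 0.27) and *Cdk1* (-0.02 ± 0.31) stood close to WT.

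The number of calls depended on single libraries more than the sizes did. Without the first day 6 library or the second WT Lgr5-high library, no replication member was called. Without the first WT Lgr5-high library 2 were, and without either WT Lgr5-low library or the second day 6 library 7 were, all lower. The mitotic calls fell to 1 without the first day 6 library or either WT Lgr5-high library, that one being *Nusap1*, and to 3 without either WT Lgr5-low library. The medians stayed between -0.95 and -0.75 for replication and between -0.84 and -0.45 for mitosis in all these fits.

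In the other lists most genes were not called. Over all genes 21.9% were called, 1530 of 12899 lower and 1298 higher. Of 57 further replication genes 17 fell and none rose, among them the polymerase subunit *Pold1* (-1.43 ± 0.30, adjusted p = 0.0118) and the primase *Prim1* (-1.36 ± 0.22, adjusted p = 0.0047). Of 70 further mitosis genes 16 fell and 2 rose, with *Lmnb1* (-1.53 ± 0.32, adjusted p = 0.0122) and the condensin subunits *Ncapd2* (-1.27 ± 0.26, adjusted p = 0.0118) and *Ncapd3* (-1.23 ± 0.34, adjusted p = 0.0328) among those that fell. Of 33 regulators of cycle entry 8 fell and none rose, with *Wee1* (-1.51 ± 0.30, adjusted p = 0.00967) and *E2f8* (-1.45 ± 0.36, adjusted p = 0.0246) among them. *Cdk6* went from 10.4 and 11.2 to 2.51 and 3.93 FPKM. Neither *Ccnd1* (-0.51 ± 0.25) nor *Myc* (-0.24 ± 0.32) passed. Of 14 inhibitors 4 rose and 2 fell. *Cdkn1a* was at 99.7 and 85.5 FPKM against 10.1 and 10.7 (3.03 ± 0.28, adjusted p = 0.000602). *Cdkn2b* rose (2.30 ± 0.26, adjusted p = 0.00145), and *Cdkn2c*, which encodes p18, fell (-1.65 ± 0.23, adjusted p = 0.00273). Markers of cell types moved alongside: all 7 stem cell markers were called lower, with sums of 125 and 507 FPKM at day 6. Of the others, 6 of 7 goblet, 6 of 7 enteroendocrine and 5 of 8 enterocyte markers were called higher, with enterocyte sums of 3120.3 and 3198. Paneth marker sums were 128555 and 51156 against 48300.1 and 34782, 2 of 7 being called higher. Their part in the fall was not tested.

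Set against WT Lgr5-low cells, few members were called. Of 26 replication members 1 was called, *Rrm2*, which rose from 19.4 and 18.3 to 36.8 and 36.1 FPKM (0.92 ± 0.21, adjusted p = 0.0286). Of 21 mitotic members 1 was called, *Nusap1*, which fell from 11.2 and 11.9 to 4.12 and 4.52 (-1.24 ± 0.21, adjusted p = 0.00888), where 11.5% of all genes were called. The medians were -0.22 and -0.20, against -0.08 over all genes. *Rrm2* was no longer called when either WT library of either gate or either day 6 library was left out, nor *Nusap1* without either WT Lgr5-low library or the first day 6 library. Next in order were *Ccne1* (0.90 ± 0.27), *Rfc4* (-0.82 ± 0.29) and the cyclins *Ccnb2* (-0.79 ± 0.22) and *Ccna2* (-0.81 ± 0.26). None of these passed. *Mcm6* (-0.69 ± 0.29), *Pcna* (-0.23 ± 0.29), *Mki67* (-0.38 ± 0.34), *Ccnb1* (-0.11 ± 0.31), *Ccnd1* (-0.07 ± 0.25) and *Myc* (0.87 ± 0.32) did not pass. *Cdkn1a* rose here too (1.73 ± 0.28, adjusted p = 0.00683; not called without either WT Lgr5-low library or the first day 6 library), as did *Ccng1*, a target of p53 (1.52 ± 0.29, adjusted p = 0.0135). The spindle gene *Psrc1* (1.76 ± 0.23, adjusted p = 0.0032) and *Gtse1* (1.09 ± 0.27, adjusted p = 0.0334) rose, while *Gadd45a* (-1.44 ± 0.24, adjusted p = 0.00805), *Mycn* (-1.21 ± 0.20, adjusted p = 0.00747) and *E2f2* (-0.90 ± 0.22, adjusted p = 0.0349) fell. In all, 1 of 57 further replication genes rose (the activator subunit *Dbf4*, 0.90 ± 0.23, adjusted p = 0.0377) and none fell, and 2 of 70 further mitosis genes rose and 3 fell.

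**Figure D3:**
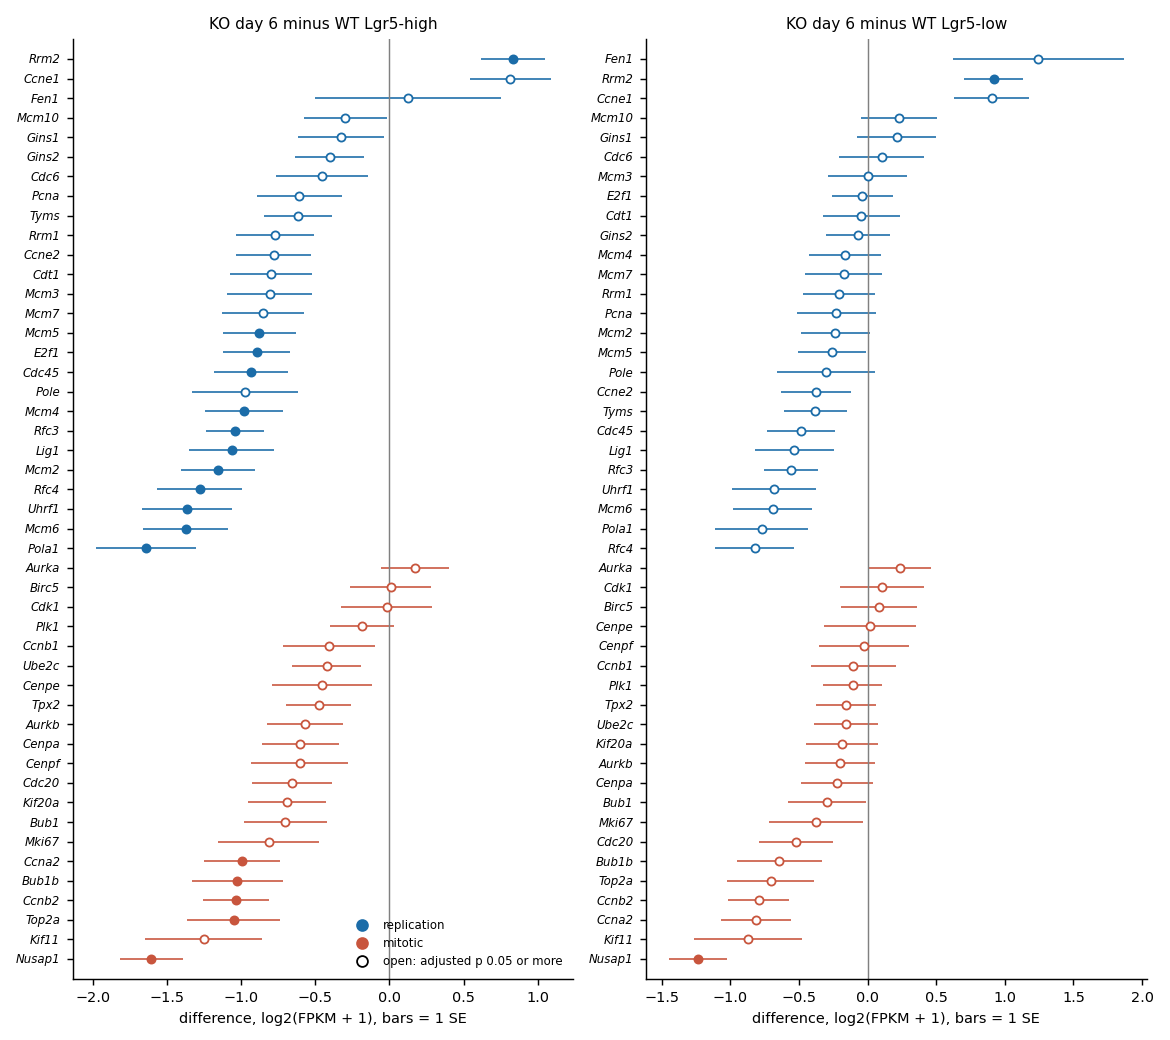
Difference of each member at day 6 from WT Lgr5-high (left) and WT Lgr5-low cells (right) on the log2(FPKM + 1) scale, as limma's estimate with 1 SE, filled where the adjusted p was under 0.05. Against Lgr5-high 11 replication and 5 mitotic genes lie filled on the left, and against Lgr5-low only Rrm2 and Nusap1 are filled.

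Day 6 set against day 4 Lgr5-high cells gave medians of -0.81 and -0.64, and here too gate and time cannot be told apart. A single replication member was called, *Rfc3*, at 4.00 and 4.88 FPKM at day 6 and 11.4 and 10.5 at day 4 (-1.14 ± 0.20, adjusted p = 0.0286). No mitotic member was, where 3.21% of all genes were called. At an unadjusted p under 0.05 it was 17 of 26 and 8 of 21, against 24.2% of all genes. *Mcm6* (-1.19 ± 0.29), *Mcm5* (-1.01 ± 0.25), *Nusap1* (-0.83 ± 0.21), *Ccnb2* (-0.77 ± 0.22) and *Aurkb* (-0.80 ± 0.25) had the next smallest p. The call was lost without any one of the 4 WT libraries, the first day 4 Lgr5-high or the first day 6 library, and became 5 without either day 4 Lgr5-low library and 6 without the second day 4 Lgr5-high library. *Pcna* (-0.61 ± 0.29), *Mki67* (-0.71 ± 0.34), *Ccnb1* (-0.17 ± 0.31), *Ccnd1* (-0.81 ± 0.25) and *Myc* (-0.40 ± 0.32) did not pass. *Cdkn1a* (1.55 ± 0.28, adjusted p = 0.0289) and *Cdkn2b* (1.62 ± 0.26, adjusted p = 0.0252) rose and *Cdk4* (-1.35 ± 0.29, adjusted p = 0.0467) and *Cdkn2c* (-1.12 ± 0.23, adjusted p = 0.0419) fell. Of 57 further replication genes 3 fell, among them *Rfc5* (-1.10 ± 0.23) and *Prim1* (-1.02 ± 0.22), and of 70 further mitosis genes none was called. Markers of cell types moved alongside. Of 7 stem cell markers 5 were called lower (*Ascl2*, *Olfm4*, *Smoc2*, *Axin2* and *Rgmb*), and of 8 enterocyte markers 2 were called higher (*Apoa1* and *Rbp2*). Their part was not tested.

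Against day 4 Lgr5-low the medians were -0.01 and -0.14, and no member was called (0.0543% of all genes). The count was 1 of 26 and 0 of 21 at an unadjusted p under 0.05 (8.29% of all genes). That one was *Ccne1* (0.79 ± 0.27). Without the first day 4 Lgr5-low library these medians were 0.32 and 0.15, and without the second -0.39 and -0.41. Here *Mcm6* (-0.14 ± 0.29), *Rrm2* (0.46 ± 0.21), *Fen1* (1.01 ± 0.62), *Pcna* (0.21 ± 0.29), and *Mki67* (-0.37 ± 0.34) did not pass. Nor did *Ccnb1* (0.03 ± 0.31), *Cdk1* (0.40 ± 0.31), *Cenpa* (-0.34 ± 0.26), *Kif11* (-0.59 ± 0.39), *Ccnd1* (-0.61 ± 0.25), *Myc* (0.63 ± 0.32) or *Cdkn1a* (0.48 ± 0.28).

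Knockout organoids had less of several replication genes than WT organoids. Of 26, 10 fell and 1 rose (42.3% of the set, against 28.2% of all genes), with a median of -0.22 against 0.01 over all genes. *Mcm6* was at 37.3 and 38.0 FPKM in WT and 26.5 and 26.4 in knockout organoids (-0.49 ± 0.07, adjusted p = 0.00455). *Lig1* was at 27.7 and 25.1 against 18.4 and 18.5 (-0.50 ± 0.09, adjusted p = 0.00751). For both genes the groups were well apart, and *Cdc45* fell too (-0.47 ± 0.08, adjusted p = 0.00567). *Mcm2*, *Mcm4* (-0.45 ± 0.11, adjusted p = 0.0229), *Pola1* (-0.42 ± 0.09, adjusted p = 0.0133), *Rfc3*, *Rfc4*, *Uhrf1* and the clamp *Pcna*, from 77.4 and 72.1 to 57.0 and 55.6 (-0.40 ± 0.08, adjusted p = 0.0127), made up the rest. *Ccne1* rose, from 3.86 and 4.72 to 6.51 and 7.08 (0.56 ± 0.11, adjusted p = 0.0108). *Rrm2* stood at 28.2 and 29.9 in WT and 29.5 and 28.6 in knockout, which overlap (0.00 ± 0.09).

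Of 21 mitotic members 5 fell and 1 rose, 28.6% of the set, near the 28.2% of all genes, with a median of -0.11. *Nusap1* again fell most, from 11.5 and 13.3 FPKM to 7.26 and 5.98 (-0.82 ± 0.12, adjusted p = 0.00382), and was called with any single library left out. The motor *Kif11* (-0.61 ± 0.13, adjusted p = 0.017), *Cdc20* (-0.41 ± 0.11, adjusted p = 0.0334), *Ccna2* (-0.40 ± 0.10, adjusted p = 0.0242) and *Ccnb2* (-0.31 ± 0.07, adjusted p = 0.0152) fell, and *Birc5* rose, from 17.3 and 17.2 to 20.7 and 22.0 (0.29 ± 0.07, adjusted p = 0.0258). *Mki67* was at 33.2 and 38.7 in WT and 35.8 and 41.2 in knockout organoids, which overlap (0.10 ± 0.15), and *Ccnb1* did not pass (-0.24 ± 0.12). The replication calls came to 4 if the first WT or the second knockout library was left out, to 7 if the second WT was and to 5 if the first knockout was. The mitotic calls came to 2 without the first WT and to 1 without any other of these 4. The medians stayed between -0.27 and -0.18 and between -0.16 and -0.10.

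The other lists gave calls in both directions, where 28.2% of all genes were called. Of 57 further replication genes 9 fell and 2 rose, with *Dck* (-0.49 ± 0.08, adjusted p = 0.00486) and *Prim1* (-0.47 ± 0.09, adjusted p = 0.00992) lower and *Dbf4* (0.49 ± 0.08, adjusted p = 0.00567) higher. Of 70 further mitosis genes 16 fell and 3 rose, with *Cdc25c* (-0.67 ± 0.10, adjusted p = 0.00494) lower and *Cdca5* (0.67 ± 0.08, adjusted p = 0.00189) and *Fam83d* (0.65 ± 0.10, adjusted p = 0.00438) higher. Of 33 entry regulators 9 fell and 2 rose, with *Cdk2* (-0.77 ± 0.22, adjusted p = 0.042) and *Rb1* (-0.73 ± 0.11, adjusted p = 0.00375) lower and *Pkmyt1* (0.72 ± 0.12, adjusted p = 0.00709) higher. Neither *Ccnd1* (-0.13 ± 0.08) nor *Myc* (0.31 ± 0.13) passed. Of 14 inhibitors 3 rose, *Gadd45b* (0.70 ± 0.11, adjusted p = 0.00537), *Gadd45g* (0.49 ± 0.12, adjusted p = 0.0235) and *Cdkn1c* (0.47 ± 0.14, adjusted p = 0.048), and 3 fell. *Cdkn1a*, which rose in tissue, was at 62.8 and 61.9 FPKM in WT and 57.1 and 56.7 in knockout organoids (-0.13 ± 0.11). All 7 goblet markers were called higher in knockout organoids and 5 of 7 enterocyte markers lower, and 3 of 7 stem cell markers were called lower. The enteroendocrine markers *Chga*, *Chgb*, *Neurod1*, *Tac1* and *Ghrl* were called higher too, while *Neurog3* and *Sst* were not called. Of the Paneth markers *Mmp7*, *Ang4*, *Itln1* and *Pla2g2a* were called higher, and *Lyz1*, *Defa17* and *Defa24* were not called. Their part in the differences above was not tested.

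The tissue and organoid knockout comparisons share no library, and their calls can be set side by side. The tissue one is day 6, with no named gate, against WT Lgr5-high, so it may hold a gate difference as well as one of knockout. Against WT Lgr5-low only *Nusap1* was called lower at day 6, and no member was called at day 4 against WT of its gate. Of the 16 members that fell at day 6 against WT Lgr5-high, 12 fell in organoids (75.0%), which is 80.0% of the 15 that fell there. These were *Cdc45*, *Lig1*, *Mcm2*, *Mcm4*, *Mcm6*, *Pola1*, *Rfc3*, *Rfc4* and *Uhrf1* of the replication set, and *Ccna2*, *Ccnb2* and *Nusap1* of the mitotic set. Over the 12097 genes tested in both, 34.2% of the 1423 that fell at day 6 also fell in organoids, which is 34.5% of the 1413 that fell there. Of members that rose, *Rrm2* was called in tissue and *Ccne1* and *Birc5* in organoids. *Ccne1* stood higher in tissue too without passing (0.81 ± 0.27, against 0.56 ± 0.11, adjusted p = 0.0108 in organoids), and the difference between the settings was not tested.

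With AKF, no member of knockout organoids passed the test against plain knockout ones. None was called (0.0474% of all genes) and none had an unadjusted p under 0.05 (4.6% of all genes), with medians of -0.08 and -0.04. The smallest p belonged to *Tyms* (-0.28 ± 0.12), *Rfc4* (-0.26 ± 0.12) and *Cdt1* (-0.27 ± 0.15), and of the mitotic set to *Cdc20* (-0.18 ± 0.11), *Birc5* (-0.11 ± 0.07) and *Aurkb* (-0.12 ± 0.09). *Mki67* (-0.02 ± 0.15), *Mcm6* (-0.10 ± 0.07), *Pcna* (-0.08 ± 0.08) and *Ccnb1* (-0.06 ± 0.12) did not pass. Nor did *Ccnd1* (-0.04 ± 0.08), *Myc* (-0.23 ± 0.13) or *Cdkn1a* (0.03 ± 0.11). The first AKF library had the lowest level of both sets among the organoids. The replication median was 0.02 without it and -0.19 without the second, and the mitotic median 0.04 and -0.15.

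AKFP organoids had more of several members of both sets than plain knockout organoids. Of 26 replication members 8 rose and none fell, with a median of 0.23. The share called, 30.8%, was near the 26.4% of all genes called in either direction, where 1666 of 12657 genes rose. *Rrm1* went from 12.3 and 12.0 FPKM to 17.2 and 17.9 (0.49 ± 0.08, adjusted p = 0.00913). *Rrm2* went from 29.5 and 28.6 to 40.5 and 41.3 (0.48 ± 0.09, adjusted p = 0.0122), and *Tyms* from 5.08 and 5.41 to 7.71 and 7.65 (0.48 ± 0.12, adjusted p = 0.0334). All of these serve the supply of DNA nucleotides, and in each the groups did not overlap. *Mcm4* (0.47 ± 0.11, adjusted p = 0.0224), *Mcm6*, at 32.4 and 33.7 (0.31 ± 0.07, adjusted p = 0.0257), *Mcm2*, *Pola1* (0.45 ± 0.09, adjusted p = 0.0127) and *Ccne2* (0.47 ± 0.13, adjusted p = 0.0357) rose as well, while *Pcna* did not pass (0.01 ± 0.08).

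Of 21 mitotic members 10 rose and none fell, 47.6% against 26.4% of all genes called in either direction. The median was 0.33 against 0.04 over all genes. *Top2a* went from 26.4 and 28.3 FPKM to 37.5 and 39.3 (0.47 ± 0.11, adjusted p = 0.021) and *Ccna2* from 27.3 and 29.1 to 37.1 and 40.4 (0.45 ± 0.10, adjusted p = 0.0202). *Kif11* (0.51 ± 0.13, adjusted p = 0.0332), *Cenpf* (0.48 ± 0.13, adjusted p = 0.0359), *Ccnb1* (0.45 ± 0.12, adjusted p = 0.0361), *Ube2c* (0.38 ± 0.09, adjusted p = 0.023), *Tpx2*, *Bub1*, *Birc5* and *Aurka* rose too. *Mki67*, at 52.2 and 47.5, stood above both knockout libraries without passing (0.37 ± 0.15). The calls rested on single libraries. The replication and mitotic counts were 0 and 0 if the first plain knockout library was left out, 1 and 0 if the second was, 3 and 2 without the first AKFP library and 0 and 0 without the second. The mitotic count was 6 without either WT library. The medians stayed between 0.21 and 0.26 and between 0.27 and 0.33.

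Of all genes 26.4% were called in this comparison, 1666 higher and 1671 lower. Beside the members, 13 of 57 further replication genes rose and none fell (*Orc2*, 0.59 ± 0.12, adjusted p = 0.015, and *Asf1b*, 0.53 ± 0.12, adjusted p = 0.0189, rose). Of 70 further mitosis genes 18 rose and 1 fell (*Knl1*, 0.75 ± 0.13, adjusted p = 0.0102, *Sgo1*, 0.53 ± 0.10, adjusted p = 0.0122, and *Kif4*, 0.52 ± 0.08, adjusted p = 0.00767, rose). Among 33 entry regulators 6 rose and 1 fell. *Ccnd2*, a cyclin of the G1 phase, went from 35.4 and 39.3 FPKM to 70.8 and 69.9 (0.90 ± 0.08, adjusted p = 0.000896). *E2f7* (0.67 ± 0.11, adjusted p = 0.0081) and *Ccnd1* (0.35 ± 0.08, adjusted p = 0.0246) rose, *Pkmyt1* fell (-0.65 ± 0.12, adjusted p = 0.0132) and *Myc* did not pass (-0.05 ± 0.13). Of 14 inhibitors 2 rose and 5 fell, with *Gadd45a* going from 30.1 and 27.6 to 11.9 and 12.4 (-1.18 ± 0.10, adjusted p = 0.000742). *Gadd45b* (-0.74 ± 0.11, adjusted p = 0.00647) and *Gadd45g* (-0.65 ± 0.12, adjusted p = 0.012) fell with it, and *Cdkn1a* did not pass (-0.29 ± 0.11). Of the markers, 3 of 7 stem cell markers (*Ascl2*, itself one of the introduced factors, *Olfm4* and *Slc12a2*) and 5 of 7 Paneth markers were called higher and 6 of 7 enteroendocrine and 3 of 7 enterocyte markers lower. Their part was not tested.

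**Figure D4:**
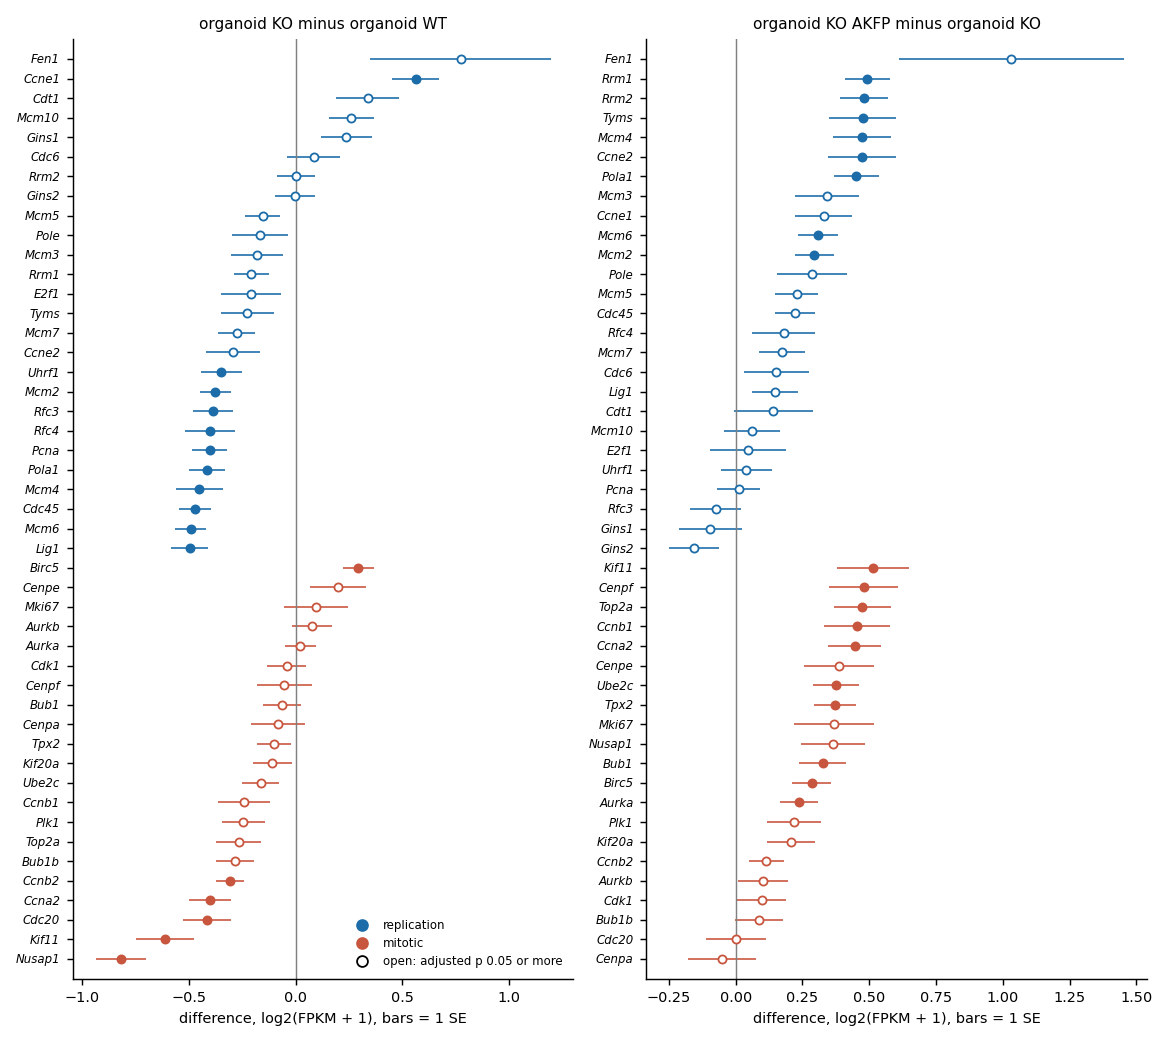
Difference of each member between knockout and WT organoids (left) and between AKFP and plain knockout organoids (right) on the log2(FPKM + 1) scale, as limma's estimate with 1 SE, filled where the adjusted p was under 0.05. On the left, 10 replication and 5 mitotic genes are filled below 0, and on the right 8 and 10 are filled above 0, and both panels share the plain knockout libraries.

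Against AKF organoids, 14 of 26 replication and 11 of 21 mitotic members were called higher with AKFP and none lower. The medians were 0.35 and 0.37, and 25.6% of all genes were called in either direction, 1626 of 12657 being higher. *Tyms* (0.76 ± 0.12, adjusted p = 0.0084), *Ccne2* (0.64 ± 0.13, adjusted p = 0.015), *Rrm1* (0.57 ± 0.08, adjusted p = 0.00579), *Rrm2* (0.55 ± 0.09, adjusted p = 0.00798), *Pola1* (0.48 ± 0.09, adjusted p = 0.0107) and *Mcm6* (0.41 ± 0.07, adjusted p = 0.0111) rose. *Fen1* was at 11.5 and 16.4 FPKM with AKF and 47.2 and 45.7 with AKFP (1.69 ± 0.42, adjusted p = 0.0295). Of the mitotic set *Ccnb1* (0.52 ± 0.12, adjusted p = 0.0248), *Top2a* (0.52 ± 0.11, adjusted p = 0.0158) and *Cenpf* (0.47 ± 0.13, adjusted p = 0.0382) rose. So did *Kif11* (0.46 ± 0.13, adjusted p = 0.0471), *Ccna2* (0.43 ± 0.10, adjusted p = 0.0222) and *Ube2c* (0.41 ± 0.09, adjusted p = 0.0174). *Mki67* did not pass (0.39 ± 0.15), and *Nusap1* passed narrowly, at 8.31 and 9.26 FPKM. *Ccnd1* (0.39 ± 0.08, adjusted p = 0.0178), *Ccnd2* (0.90 ± 0.08, adjusted p = 0.000819), *Ccnd3* (1.29 ± 0.24, adjusted p = 0.0117) and *E2f7* (0.63 ± 0.11, adjusted p = 0.0101) rose. *Gadd45a* (-1.26 ± 0.10, adjusted p = 0.000643), *Gadd45g* (-0.77 ± 0.12, adjusted p = 0.00703) and *Ccng2* (-0.72 ± 0.12, adjusted p = 0.00798) fell. *Pcna* (0.09 ± 0.08), *Myc* (0.17 ± 0.13) and *Cdkn1a* (-0.32 ± 0.11) did not pass. Of the further replication genes 17 of 57 rose, led by *Orc2* (0.69 ± 0.12), *Asf1b* (0.69 ± 0.12) and *Orc1* (0.66 ± 0.11). Of the further mitosis genes 26 of 70 rose, led by *Knl1* (0.72 ± 0.13), *Sgo1* (0.60 ± 0.10) and *Melk* (0.56 ± 0.12), with none falling. Of the markers, 6 of 7 enteroendocrine and 4 of 7 enterocyte markers were called lower and 3 of 7 Paneth markers higher. Of stem cell markers *Olfm4* and *Slc12a2* were called higher and *Ascl2*, which AKF and AKFP both include, lower. Their part was not tested. The counts came to 5 and 0 without the first AKF library, 6 and 3 without the first AKFP library and 2 and 0 without the second AKFP library. The replication count came to 8 without either plain knockout library and the mitotic count to 7 without either WT library.

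Set against WT organoids, AKFP knockout organoids had members called in both directions. Of 26 replication members 6 were higher and 5 lower than in WT, and of 21 mitotic members 6 higher and 2 lower, where 43.4% of all genes were called. Neither set was thus called more often than genes at large. The medians were 0.06 and 0.18. *Rfc3*, at 8.65 and 7.52 FPKM in WT and 5.94 and 5.25 in AKFP (-0.46 ± 0.09, adjusted p = 0.00807), *Pcna* (-0.39 ± 0.08, adjusted p = 0.00875), *Lig1*, *Cdc45* and *Uhrf1* were lower, as were *Nusap1* (-0.45 ± 0.12, adjusted p = 0.0206) and *Cdc20* (-0.41 ± 0.11, adjusted p = 0.0235). *Ccne1*, at 8.70 and 8.87 against 3.86 and 4.72 (0.89 ± 0.11, adjusted p = 0.00109), *Rrm2* (0.48 ± 0.09, adjusted p = 0.00557), *Cdt1* (0.48 ± 0.15, adjusted p = 0.037), *Fen1* (1.81 ± 0.42, adjusted p = 0.0136), *Rrm1* and *Mcm10* were higher. So were *Cenpe* (0.59 ± 0.13, adjusted p = 0.012), *Birc5* (0.58 ± 0.07, adjusted p = 0.00127), *Mki67*, at 52.2 and 47.5 against 33.2 and 38.7 (0.46 ± 0.15, adjusted p = 0.0427), *Cenpf* (0.43 ± 0.13, adjusted p = 0.0342), *Aurka* and *Tpx2*. *Mcm6* (-0.18 ± 0.07) and *Ccnb1* (0.21 ± 0.12) did not pass. The replication count was 2 without the first WT library, 7 without the second WT library or either plain knockout library, 4 without the first AKFP library and 3 without the second. The mitotic count was 2 without either WT library, 1 without the first AKFP library and 3 without the second. The comparison with plain knockout and this one share the AKFP libraries.

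Among the other lists, where 43.4% of all genes were called, 11 of 57 further replication genes were higher and 8 lower than in WT, with *Dbf4* (0.95 ± 0.08, adjusted p = 0.000297), *Exo1* (0.88 ± 0.21, adjusted p = 0.0146) and *Orc2* (0.86 ± 0.12, adjusted p = 0.00174) highest. Of the mitosis list, 13 of 70 further genes were higher and 8 lower, with *Fam83d* (1.04 ± 0.10, adjusted p = 0.000421), *Cdca5* (0.90 ± 0.08, adjusted p = 0.000332) and *Sgo1* (0.79 ± 0.10, adjusted p = 0.00116) highest. Of 33 entry regulators 6 were higher, among them *Fbxo5* (0.81 ± 0.09, adjusted p = 0.00088) and *Ccnd2* (0.70 ± 0.08, adjusted p = 0.000717), and 2 lower, with *Rb1* at -0.53 ± 0.11, adjusted p = 0.0074. *Ccnd1* (0.21 ± 0.08) and *Myc* (0.26 ± 0.13) did not pass. Of 14 inhibitors 3 were lower and none higher. These were *Gadd45a* (-1.25 ± 0.10, adjusted p = 0.000234), *Ccng2* (-0.74 ± 0.12, adjusted p = 0.00303) and *Cdkn1a*, at 45.3 and 47.2 against 62.8 and 61.9 FPKM (-0.42 ± 0.11, adjusted p = 0.022). Of the markers, all 7 enterocyte markers were called lower, and 6 of 7 Paneth and 6 of 7 goblet markers higher. Their part was not tested.

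A few members had patterns of their own across the whole series. *Nusap1* was lower in every knockout tissue library of a gate than in both WT libraries of that gate, at day 6 lower than in all 4 WT libraries, and lower in all 6 knockout organoid libraries, which ran from 5.98 to 9.26 FPKM, than in WT ones. *Rrm2* was above both WT libraries of its gate in every day 3 and day 4 library, and above all 4 WT libraries at day 6, while in organoids both AKFP libraries and, narrowly, the second AKF library stood above WT. *Ccne1* was highest of the tissue libraries at day 6 and in the first day 4 Lgr5-high library, and above WT in all 6 knockout organoid libraries. *Mki67*, by which cycling cells are often counted, did not pass in any comparison except AKFP against WT organoids, and *Mcm6*, the other marker, fell at day 6 against WT Lgr5-high alone and in knockout organoids, and rose with AKFP against plain knockout and AKF organoids but did not pass against WT ones. Within each gate the FPKM of *Cdkn1a* increased in the order WT, day 3, day 4, with 1 library at day 3. It was above all of these at day 6, for which no gate is named, and was lower in AKFP than in WT organoids.

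**Figure D5:**
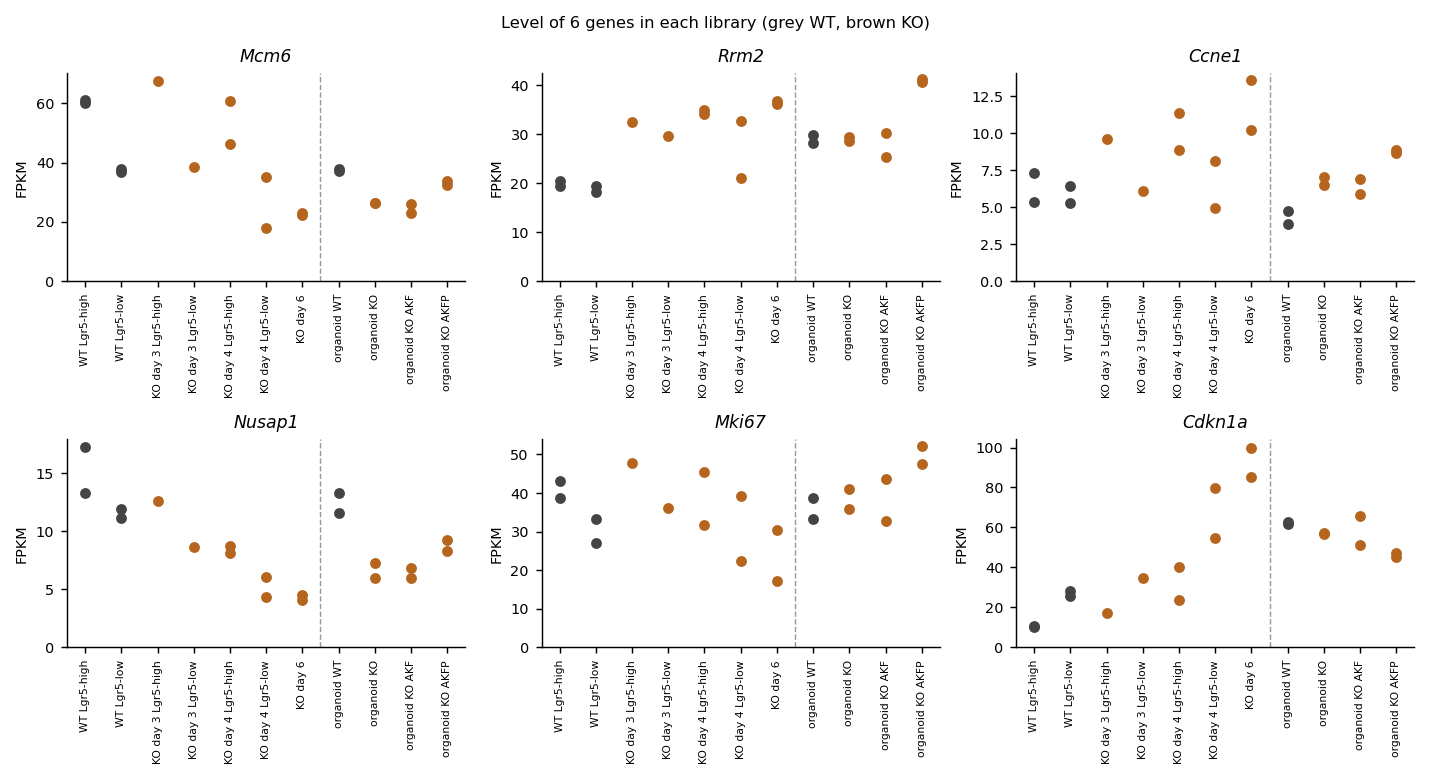
FPKM (vertical axis, from 0) of Mcm6, Rrm2, Ccne1, Nusap1, Mki67 and the inhibitor gene Cdkn1a in each of the 20 libraries by group, WT in grey and knockout in brown. Nusap1 lies below WT in all knockout organoid libraries, Rrm2 above WT in knockout tissue, and the Mki67 libraries of WT and knockout overlap in most groups.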

How the data were processed

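Whole-transcript RNA-seq was done on sorted crypt cells (12 libraries) and organoids (8 libraries). The authors deposited FPKM per gene, 1 table per tissue library and 1 for all organoids. The header of the organoid table names no unit, and its values were taken as FPKM because HISAT2 2.1.0, StringTie 1.3.3b and mm10, per the submitters' processing notes, apply to the series. The notes give no counts, strand setting or annotation, and library depth is not known. FPKM + 1 was put on the log2 scale, genes at 1 FPKM or more in 2 or more libraries were kept (12899 in tissue, 12657 in organoids), and limma 3.58.1 (R 4.3.3) with a trended prior was fitted to the 10 replicated tissue libraries and, separately, to the 8 organoid libraries, with Benjamini-Hochberg adjustment over all genes in each of 14 comparisons and a threshold of 0.05. Day 3 has 1 library a gate and stayed outside the fit. The scripts were tested on simulated data. Alternatives were another pseudocount, other filters and scalings, a fit of the compared groups alone, a replicate block, no trend, and each library left out. The members and lists were chosen with earlier results of these data known. Called genes of a list were named mainly by largest absolute difference, so the printed sizes lean to the largest. Where few or no members were called, those of smallest p were named. *Mki67*, *Mcm6*, *Pcna*, *Ccnb1*, *Ccnd1*, *Myc* and *Cdkn1a* were named whatever their values. Members named for their pattern were chosen after their values were seen. Some genes of the replication list that the rule would name are not reported here by name.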

Additional observations from a re-analysis of the deposited data

How the results depend on the processing

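Counts of calls moved by more than 1.5 times under several settings, and the sign of some medians near 0 turned. The cause was not tested unless the setting itself gives it (fewer libraries in a fit). When the fit held the compared groups alone, the calls came to 11 replication and 1 mitotic for the WT gates, 2 mitotic for day 6 against WT Lgr5-low, 0 replication for day 6 against day 4 Lgr5-high and 8 replication and 4 mitotic for AKFP against AKF organoids. With no filter on low values, the calls came to 2 mitotic for day 6 against WT Lgr5-high, 0 replication for day 6 against WT Lgr5-low, 0 replication for day 6 against day 4 Lgr5-high and 7 replication and 3 mitotic for knockout against WT organoids. Under it, calls came to 5 replication and 2 mitotic for AKFP against knockout organoids, 7 replication and 4 mitotic for AKFP against AKF organoids and 5 replication and 4 mitotic for AKFP against WT organoids. With each library scaled to an equal FPKM sum, the calls came to 3 mitotic for day 6 against WT Lgr5-high, 0 replication for day 6 against WT Lgr5-low, 0 replication for day 6 against day 4 Lgr5-high and 7 replication for AKFP against WT organoids. With each library scaled to an equal FPKM sum, the medians came to -1.20 replication and -0.93 mitotic for day 6 against WT Lgr5-high, -0.47 replication and -0.46 mitotic for day 6 against WT Lgr5-low, -0.88 mitotic for day 6 against day 4 Lgr5-high and -0.37 mitotic for day 6 against day 4 Lgr5-low. Under it, medians came to -0.31 replication and -0.21 mitotic for knockout against WT organoids, 0.34 replication and 0.44 mitotic for AKFP against knockout organoids and 0.47 replication and 0.49 mitotic for AKFP against AKF organoids. With quantile normalization, the calls came to 1 mitotic for day 4 against WT in Lgr5-low and 2 mitotic for day 6 against WT Lgr5-low. With the trend on transcript length removed, the calls came to 1 mitotic for day 4 against WT in Lgr5-low, 3 replication and 4 mitotic for day 6 against WT Lgr5-low and 6 replication and 2 mitotic for day 6 against day 4 Lgr5-high. With the trend on transcript length removed, the medians came to 0.065 mitotic for day 4 against WT in Lgr5-high, 0.28 mitotic for AKFP against AKF organoids and -0.053 replication and 0.070 mitotic for AKFP against WT organoids. Without both libraries of largest FPKM sum, the calls came to 4 replication and 1 mitotic for day 6 against WT Lgr5-high, 0 replication for day 6 against WT Lgr5-low and 0 replication for day 6 against day 4 Lgr5-high. Without both libraries of largest FPKM sum, the medians came to 0.050 mitotic for day 4 against WT in Lgr5-high.

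With the replicate number as a block, the calls came to 2 replication and 2 mitotic for day 6 against WT Lgr5-low and 4 replication for day 6 against day 4 Lgr5-high. Day 6 against WT Lgr5-high then had 16 replication and 6 mitotic calls, within 1.5 times of the count without it, as were the other counts of members called. The numbers were not taken to pair the samples in the main fit. The correlation of same-numbered deviations ran from 0.02 to 0.52 in tissue and from -0.04 to 0.09 in organoids. It was 0.44 between the WT gates and 0.34 between the day 4 gates. Whether tissue libraries of the same number are paired is thus not known.

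Leaving out each library in turn, the number of calls ran in the day 4 gates from 0 to 6 (replication) and from 0 to 1 (mitotic), day 6 against WT Lgr5-high from 0 to 16 (replication) and from 1 to 7 (mitotic) and day 6 against WT Lgr5-low from 0 to 1 (replication) and from 0 to 2 (mitotic). Calls ran in day 6 against day 4 Lgr5-high from 0 to 6 (replication), knockout against WT organoids from 4 to 12 (replication) and from 1 to 8 (mitotic) and AKFP against knockout organoids from 0 to 9 (replication) and from 0 to 12 (mitotic). Calls ran in AKFP against AKF organoids from 2 to 15 (replication) and from 0 to 15 (mitotic) and AKFP against WT organoids from 2 to 12 (replication) and from 1 to 10 (mitotic). Leaving out each library in turn, the median ran in day 4 against WT in Lgr5-high from -0.36 to 0.050 (mitotic), day 4 against WT in Lgr5-low from -0.53 to 0.20 (replication) and from -0.40 to 0.22 (mitotic) and the day 4 gates from 0.47 to 1.13 (replication) and from 0.12 to 0.75 (mitotic). The median ran in the interaction from -0.082 to 0.57 (replication) and from -0.16 to 0.46 (mitotic), day 6 against WT Lgr5-high from -0.84 to -0.45 (mitotic) and day 6 against day 4 Lgr5-high from -0.72 to -0.38 (mitotic). The median ran in day 6 against day 4 Lgr5-low from -0.39 to 0.32 (replication) and from -0.41 to 0.15 (mitotic), AKF against knockout organoids from -0.19 to 0.016 (replication) and from -0.15 to 0.044 (mitotic) and AKFP against AKF organoids from 0.25 to 0.42 (replication) and from 0.21 to 0.46 (mitotic). The median ran in AKFP against WT organoids from 0.075 to 0.24 (mitotic).

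Equal FPKM sums moved the median of all genes in day 6 against WT Lgr5-high from -0.16 to -0.46, and median-of-ratios scaling moved it to -0.01. Over the settings other than leaving out 1 library, the member medians of this comparison ran from -1.20 to -0.64 (replication) and from -0.93 to -0.44 (mitotic). The trend on transcript length and the pair of libraries of largest FPKM sum were chosen after seeing the data. Counts over all genes moved as much as those of members: for the WT gates from 155 to 32 with no filter and to 1432 with only the compared groups, and for day 6 against day 4 Lgr5-high from 414 to 0 with only the compared groups. With 2 libraries a group and an unknown depth, small differences were not detectable, and the lone library of a group left with 1 was assumed to vary like the others. Of the named genes' values, 374 fell short of a call they had and 31 gained one in the fits that leave out 1 library, 2103 kept their side of the threshold, and none changed sign among called values.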

Other observations

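*Fen1*, a nuclease of lagging-strand synthesis that overlaps *Tmem258* on the other strand, ranged from 8.86 to 66.7 FPKM over the 12 tissue libraries and from 8.07 to 47.2 over the 8 organoid libraries. The organoids' highest gene was Gm23935 in plain knockout and AKF libraries and mt-Co1 in WT and AKFP libraries.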
